A study of Caenorhabditis elegans with 6 samples.

Results

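WT, a Caenorhabditis elegans strain that lives on a csr-1 transgene, was compared with N2, the non-transgenic laboratory strain, across all measured genes. The comparison sets 4 of the 6 libraries of the series against each other, 2 of each strain. Its members were taken from the strain labels with no use of measured values. The fit behind the test also used the remaining libraries, for its estimate of spread. N2 is the standard wild type and carries no transgene. WT is strain OD1463, homozygous for the csr-1 deletion allele tm892 and for its transgenes. The remaining libraries come from SIN, strain OD1175, which has the same deletion and its own transgenes. The meaning of SIN is not spelled out by the labels. By what is known of the study, the SIN transgene encodes CSR-1 that cannot slice its targets and the WT transgene the normal protein. The sources used here do not state the promoter or insertion site of the transgenes, and WT is a single strain. Each library was made from 100 gravid adults picked after growth at 20 °C, and the homozygous WT and SIN worms were recognised by their movement among the progeny of balanced heterozygous mothers. The labels describe no such selection for N2.

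CSR-1 is an Argonaute, a protein that carries a small RNA and binds transcripts that pair with it. Its small RNAs, called 22G RNAs, are made on germline transcripts by an RNA-dependent RNA polymerase, and CSR-1 is known for its need in the germline and in the chromosome segregation of the early embryo. Worms that lack it have few viable progeny. The comparison asks how completely the transgene of WT restores the non-transgenic transcriptome.

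The libraries held 33739391 to 44962816 counts each, and 15404 genes passed the filter on low counts. The labels do not say whether the 2 libraries of a strain came from separate cultures, so the p-values measure the spread between libraries only, and part of it may be technical. N2 replicate 1 stood apart from N2 replicate 2 before any comparison of strains. Between the N2 libraries 846 genes (5.49%) differed at least 2-fold on the log2(CPM + 1) scale, where CPM is the read count of a gene relative to the scaled size of its library, against 64 genes (0.415%) between the WT libraries. Cytosolic ribosomal protein genes took 7.08% of the counts in N2 replicate 1, 9.95% in N2 replicate 2, 9.12% in WT replicate 1 and 9.32% in WT replicate 2. Molting cycle genes, which larvae use to replace the cuticle, summed to 426 CPM in N2 replicate 1, 214 CPM in N2 replicate 2, and 149 and 148 CPM in WT. Markers of the tissues of an adult hermaphrodite were found in the tested genes: 13 of 13 for the germline, 12 of 12 for the intestine, 19 of 19 for body wall muscle, 26 of 27 for neurons and 10 of 12 for the epidermis.

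The WT libraries lay nearer to N2 replicate 2 than N2 replicate 1 did, and further from N2 replicate 1. The median absolute difference over the 15404 genes was 0.21 between the N2 libraries on the log2(CPM + 1) scale. From N2 replicate 2 the distance was 0.17 to each WT library. From N2 replicate 1 it was 0.24 to WT replicate 1 and 0.28 to WT replicate 2. The WT libraries differed from each other by 0.09. SIN, by the same measure, lay 0.32 to 0.36 from the N2 libraries and 0.31 to 0.32 from the WT libraries. At least 2-fold differences numbered 343 and 335 genes between N2 replicate 2 and the WT libraries, and 954 and 1211 genes between N2 replicate 1 and the WT libraries. The distance from N2 replicate 2 to WT also stayed below the distance between the N2 libraries among the 7316 genes with a mean of at least 10 CPM, at 0.14 for both WT libraries against 0.19.

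**Figure D1:**
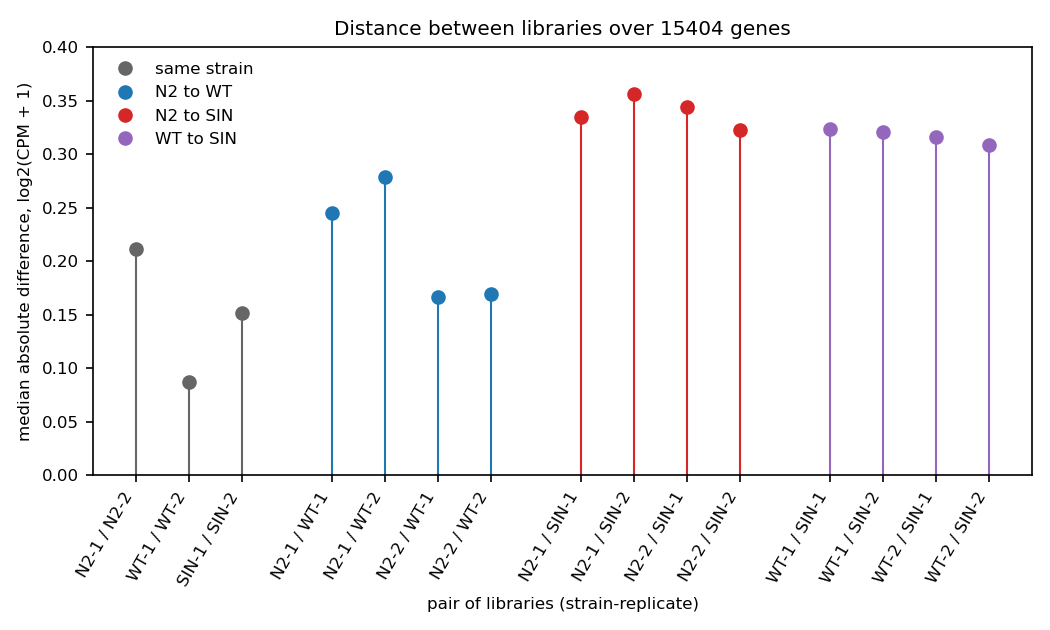
Median absolute difference between pairs of libraries over the tested genes, on the log2(CPM + 1) scale. Each point is 1 pair, and colours mark pairs of the same strain, N2 to WT, N2 to SIN and WT to SIN. The pairs of N2 replicate 2 with WT, at 0.17, are below the pair of N2 libraries at 0.21, and pairs of SIN with another strain run from 0.31 to 0.36.

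Of the 15404 genes, 17 passed the test between WT and N2 (0.11%; quasi-likelihood test of edgeR, p-values adjusted by Benjamini-Hochberg, threshold 0.05). WT was higher for 7 of them (0.0454%) and lower for 10 (0.0649%). At an unadjusted p under 0.05 there were 3091 genes (20.1%), 1353 higher (8.78%) and 1738 lower (11.3%). In SIN versus N2, which uses the same N2 libraries, 3942 genes passed (25.6%). The count for WT depends on single libraries. It was 578 genes (3.75%) without N2 replicate 1 and 4007 (26%) without N2 replicate 2, and it was 0 without WT replicate 1, WT replicate 2, SIN replicate 1 or SIN replicate 2 in turn by the same edgeR test, with 1371, 1145, 2539 and 2550 genes at an unadjusted p under 0.05. With a single N2 library left, the fit takes its spread from WT and SIN and assumes that N2 varies as little, although N2 was the strain whose libraries differed most. Calls from the fits without an N2 replicate are therefore descriptions and support no call. DESeq2 called 1117 genes (7.25%). The edgeR fit took its spread from all 6 libraries, SIN included. By the same edgeR test on the 4 N2 and WT libraries alone, 0 genes passed. There, 2571 of 15401 genes were at an unadjusted p under 0.05. The 17 genes themselves kept their direction in every one of these fits. Their WT and N2 libraries did not overlap, so leaving out a library could not reverse a direction.

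A missed threshold does not show that levels were alike, so the 95% interval of each WT to N2 ratio was set against a 2-fold change. For 8197 genes (53.2%) the whole interval lay inside 2-fold, and for 196 genes (1.27%) it lay wholly outside. For the remaining genes it crossed a 2-fold line. The median half-width of the interval over all tested genes was 0.60 on the log2 scale. In SIN versus N2 the interval lay inside 2-fold for 6968 genes (45.2%). The share differed by gene group. Of the genes with deposited 22G RNA reads from the study by Claycomb, 4013 of 4114 (97.5%) had the interval inside 2-fold, as did 1043 of 1056 germline specific genes (98.8%). Among the 8280 genes in none of the deposited 22G RNA or germline classes, it was 2564 (31%). Interval width also depends on the number of reads, and these groups differed in level. In N2 replicate 1 the 4114 genes summed to 678580 CPM and the 8280 genes to 113810 CPM. Level was not held equal, so the shares do not compare how fully the groups were restored. A change of at least 2-fold in the fitted value was seen in 536 genes higher (3.48%) and 1575 genes lower (10.2%) in WT.

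The csr-1 transcript was the check of the labels. It stood at 445 and 476 CPM for N2, 662 and 636 for WT, and 2913 and 3308 for SIN (chromosome IV, 7957267 to 7962157, WBcel235). Both WT libraries were above both N2 libraries, and the fitted ratio was 1.41-fold (log2 0.49 ± 0.12 SE, 95% interval 0.22 to 0.77), with an adjusted p = 0.122 by edgeR. It did pass with DESeq2 (adjusted p = 0.000187). The table has a single row for csr-1, which overlaps frpr-10, so transcripts of a transgene and of the deleted chromosomal copy were not separated, and the row does not test the deletion.

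A similar position was seen for klp-7, a kinesin that shortens microtubules. Its level was 159.5 and 163 CPM for N2, 236 and 236 for WT, and 2156 and 2083 for SIN. WT exceeded N2 by 1.46-fold (log2 0.55 ± 0.09 SE, adjusted p = 0.0837 by edgeR), without overlap of the libraries. The opposite order was found for unc-119, a gene needed in neurons that is often used as the marker in making transgenic worms. N2 had 18 and 15.6 CPM, WT 7.92 and 8.41 CPM, and SIN 7.86 and 8.20 CPM. WT and SIN overlapped each other and both lay below N2, with a WT to N2 log2 difference of -1.04 ± 0.16 (SE, adjusted p = 0.0763 by edgeR). Both klp-7 and unc-119 passed with DESeq2 (adjusted p = 2.19e-08 and 2.3e-05).

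The 17 called genes were few and of mixed function. Their deposited RPKM, a level per gene length, ran from 0.331 to 100.2 in N2 with a median of 10.3, against a median of 6.14 for all tested genes. Of the 17, 7 belong to a deposited germline class, where 38% of all tested genes do, and 3 have deposited 22G RNA reads from Claycomb, where 26.7% do. On the list of 22G RNAs bound to CSR-1 from the study by Conine are 5 of the 17 and 34.1% of all tested genes. The remaining 9 are in none of these, as are 53.8% of all tested genes. In every called gene the WT libraries did not overlap the N2 libraries, as was the case for 8177 of all tested genes (53.1%).

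**Figure D2:**
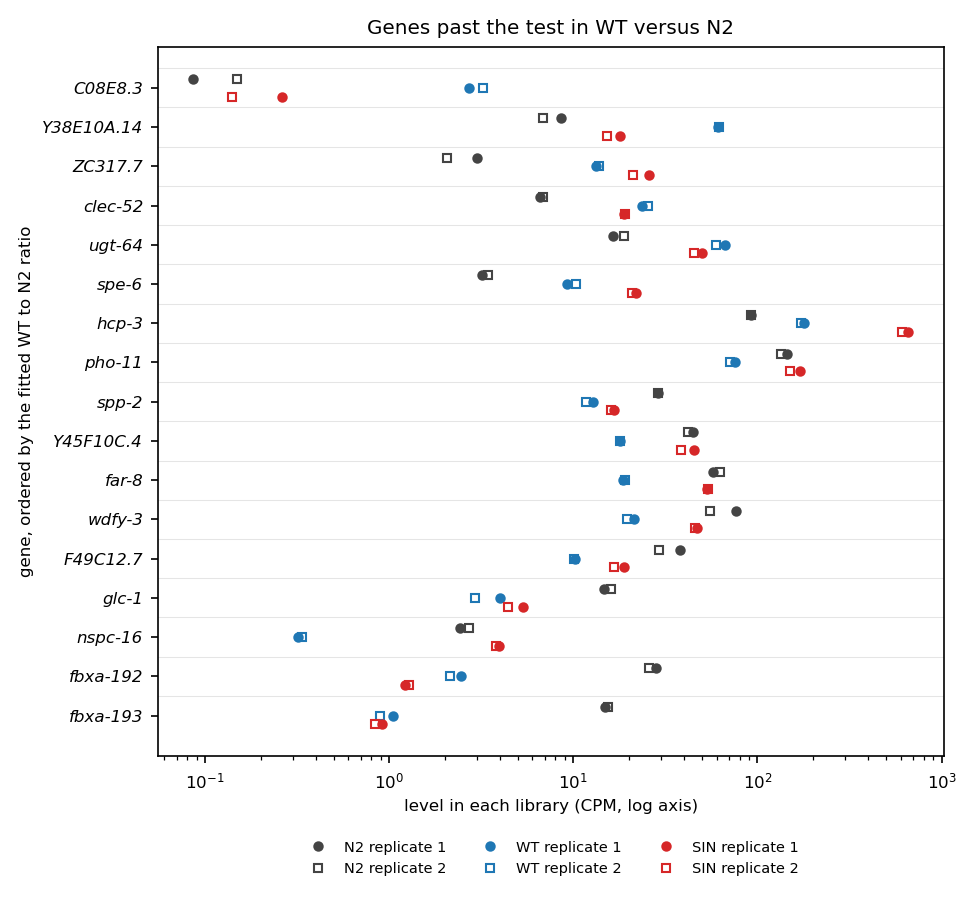
Level of the 17 called genes in each library, in CPM on a log axis. Each row is a gene, ordered by the fitted WT to N2 ratio, colours mark the strain and the symbol marks the replicate. WT is set apart from N2 in each row, and SIN lies with WT for fbxa-193 (0.908 and 0.837 CPM) and with N2 for far-8 (53.3 and 53.7 CPM).

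Of the 7 genes that rose in WT, hcp-3, spe-6, ugt-64, ZC317.7 and Y38E10A.14 are in a deposited germline class. Centromeric histone H3, the CENP-A of worms, is the product of hcp-3, which had 92.1 and 92.8 CPM for N2, 178 and 172 for WT, and 658 and 608 for SIN. The WT libraries lay 1.89-fold above N2 in the fit (log2 0.92 ± 0.09 SE, adjusted p = 0.0436 by edgeR) and far below SIN. Some of these reads may belong to F58A4.6, which overlaps hcp-3 on the other strand. A casein kinase 1 needed in spermatogenesis is encoded by spe-6, which went from 3.18 and 3.44 CPM in N2 to 9.29 and 10.3 CPM in WT, with 22 and 20.9 CPM in SIN (log2 1.57 ± 0.16 SE, adjusted p = 0.0473 by edgeR). For ZC317.7 the levels were 3.00 and 2.05 CPM for N2, 13.2 and 13.7 for WT, and 25.9 and 21.2 for SIN. In these 3 genes WT stood between N2 and SIN.

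In other genes that rose, WT was the highest strain. The uncharacterised gene Y38E10A.14 (chromosome II, 12623110 to 12624533) had 8.58 and 6.80 CPM for N2, 60.7 and 61.5 for WT, and 17.9 and 15.2 for SIN. The rise in WT was 7.94-fold (log2 2.99 ± 0.17 SE, adjusted p = 0.00452 by edgeR). C08E8.3 (chromosome V, 18350129 to 18350559) was close to absent outside WT. It had 4 and 6 reads in N2, 111 and 105 reads in WT, and 11 and 5 reads in SIN (log2 4.64 ± 0.47 SE, adjusted p = 0.0436 by edgeR). The gene ugt-64, of the family of enzymes that join glucuronic acid to small molecules, had 16.492 and 18.9 CPM for N2, 66.6 and 59.9 for WT, and 49.9 and 45 for SIN. The C-type lectin gene clec-52 had 6.61 and 6.80 CPM for N2, 23.5 and 25.3 for WT, and 18.9 and 19.1 for SIN. For both genes SIN lay nearer to WT than to N2. Their rises in WT were 3.57-fold and 3.64-fold (adjusted p = 0.0111 and 0.0145 by edgeR).

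Among the called genes, the deepest falls were in fbxa-192 and fbxa-193, neighbours of the F-box A family on chromosome V with 2954 bases between them. F-box proteins join targets to ubiquitin ligases in many organisms. Levels of fbxa-192 (17640672 to 17650527) were 28 and 25.6 CPM for N2, 2.45 and 2.15 for WT, and 1.22 and 1.28 for SIN. It fell 11.6-fold in WT (log2 -3.54 ± 0.18 SE, adjusted p = 0.00452 by edgeR). Levels of fbxa-193 (17653482 to 17655281), annotated as a pseudogene, were 14.9 and 15.4 CPM for N2, 1.05 and 0.890 for WT, and 0.908 and 0.837 for SIN. It fell 15.6-fold (log2 -3.96 ± 0.22 SE, adjusted p = 0.00452 by edgeR). On the other side of fbxa-192 lies fbxa-191, also a pseudogene, with 8.52 and 4.80 CPM for N2, 1.52 and 0.736 for WT, and 0.478 and 0.419 for SIN, which did not pass (adjusted p = 0.0874). All 3 neighbours were low in both transgenic strains. Members of this family resemble each other, so reads may have been shared among them or left uncounted.

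Another set of genes was low in WT and not in SIN. The fatty acid and retinol binding protein gene far-8 had 57.4 and 63.0 CPM for N2, 18.5 and 19 for WT, and 53.3 and 53.7 for SIN. It fell 3.21-fold in WT (log2 -1.68 ± 0.11 SE, adjusted p = 0.00677 by edgeR). Y45F10C.4 had 44.8 and 41.8 CPM for N2, 17.8 and 17.9 for WT, and 45.5 and 38.4 for SIN. The acid phosphatase gene pho-11, which overlaps C05C10.3 on the other strand, had 145 and 134 CPM for N2, 75.8 and 70.7 for WT, and 171 and 151 for SIN. For these 3 genes the SIN libraries were close to or above the N2 libraries. The short gene nspc-16, of a nematode-specific peptide family, had 2.42 and 2.70 CPM for N2, 0.318 and 0.338 for WT, and 3.97 and 3.82 for SIN. Its neighbours nspc-18 and nspc-19 on chromosome X were placed in the same order without passing the test. They had 5.60 and 6.11 CPM, and 2.62 and 2.79 CPM, in N2 against 1.61 and 1.5 CPM, and 0.562 and 0.829 CPM, in WT (adjusted p = 0.0502 and 0.073 by edgeR). How alike these genes are in sequence was not checked, and reads may be split among them.

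The other called falls were intermediate in SIN. The glutamate-gated chloride channel subunit gene glc-1 had 14.7 and 15.9 CPM for N2, 4.01 and 2.92 for WT, and 5.31 and 4.41 for SIN, and lay at the threshold (log2 -2.14 ± 0.23 SE, adjusted p = 0.04996 by edgeR). The saposin-like gene spp-2 had 28.8 and 28.7 CPM for N2, 12.76 and 11.78 for WT, and 16.7 and 15.9 for SIN, with an adjusted p = 0.04996 as well. wdfy-3, the worm relative of a mammalian autophagy adaptor, had 76.9 and 55.6 CPM for N2, 21.3 and 19.5 for WT, and 46.7 and 45.8 for SIN. F49C12.7 had 38.1 and 29.1 CPM for N2, 10.2 and 10.03 for WT, and 18.7 and 16.6 for SIN. The last 2 genes overlap others on the same strand, C26H9A.4 and F49C12.6. In all 4 genes SIN lay between WT and N2.

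Several genes with large fitted differences did not pass, and their N2 libraries often disagreed. The flavin-containing monooxygenase gene fmo-2 had 41.4 CPM in N2 replicate 1, 0.495 in N2 replicate 2, and 0.269 and 0.184 in WT (adjusted p = 0.193 by edgeR). Y37H2A.13 had 12.77 and 1.48 CPM in N2 and 0.0734 and 0.0614 CPM in WT. lpr-4 had 294 reads in N2 and 3 in WT, a ratio of 83.1 with a 95% counting interval of 28.1 to 405. Its level was 6.18 CPM in N2 replicate 1 and 0.198 in N2 replicate 2. F56A4.3 (chromosome V, 2453414 to 2456147) behaved otherwise. It had 109 and 114 reads in the N2 libraries and 0 in each WT and SIN library, at least 63.0-fold lower in WT by a floor of 3 reads over the group, with an adjusted p = 0.0502 by edgeR. The interval and the bound cover counting error alone. In the other direction, nspe-7, which lies close to Y38E10A.14 on chromosome II, had 0.648 and 6.55 CPM for N2, 23.3 and 22.7 for WT, and 4.01 and 2.23 for SIN. Y49G5A.1, F55A3.7 and fkb-8 had log2 differences of 2.65, 2.31 and 2.09 (adjusted p = 0.09, 0.0561 and 0.091 by edgeR).

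A stricter view of separation, chosen after the values were seen, asked for all 4 pairs of an N2 and a WT library to differ at least 2-fold on the log2(CPM + 1) scale. It held for 87 genes (0.565%), of which 26 were higher in WT (0.169%) and 61 lower (0.396%). By class, 55 of the 61 lower genes and 12 of the 26 higher genes are in none of the deposited classes, where 53.8% of all tested genes are. The group includes avr-15, a further glutamate-gated chloride channel subunit, with 5.51 and 9.62 CPM for N2, 1.17 and 1.53 for WT, and 8.36 and 9.54 for SIN (adjusted p = 0.0638 by edgeR). It also includes cuticle and molting genes whose excess was largest in N2 replicate 1. The cuticle collagen gene dpy-14 had 94.6 CPM in N2 replicate 1, 10.7 in N2 replicate 2, and 2.69 and 3.44 in WT. Of 112 tested cuticle collagen and patterning genes, only 3 were in this group, all lower in WT. Summed over all 112, the list was lowest in N2 replicate 1, at 7635 CPM. It had 23807 CPM in N2 replicate 2, and 16892 and 20413 in WT.

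The lists for meiotic chromosomes, the spindle and the kinetochore sat slightly higher in WT than in N2, with 1 gene past the test. The median log2 difference over all tested genes was -0.03. For 38 meiotic chromosome factors it was 0.18, and 27 of them had WT libraries wholly above N2 and 2 wholly below, where the shares over all genes were 25.4% and 27.7%. For 52 spindle, centrosome and cytokinesis genes it was 0.19 with 34 above and 8 below. For 27 kinetochore and spindle checkpoint genes it was 0.17 with 19 above and 1 below. On these 3 lists, hcp-3 was the gene that passed. DESeq2 called 8 meiotic, 15 spindle and 4 kinetochore genes higher and 1 spindle gene lower. Over all 15404 genes it called 571 higher and 546 lower. Medians were lower on other germline lists, at 0.10 for 15 P granule components, 0.00 for 37 oocyte and maternal RNA regulators, 0.02 for 31 small RNA pathway factors and -0.14 for 19 other Argonautes. The medians of the meiotic, spindle and kinetochore lists ran from 0.15 to 0.21 when either N2 replicate was left out. Shifts of this size were not particular to these 3 lists. For 32 proteasome subunits the median was 0.18, with 20 above and 0 below. Mitochondrial ribosomal protein genes had a median of 0.34 for both 39 mrpl and 27 mrps genes. In whole worms, more cells of a type and more RNA per cell cannot be told apart.

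**Figure D3:**
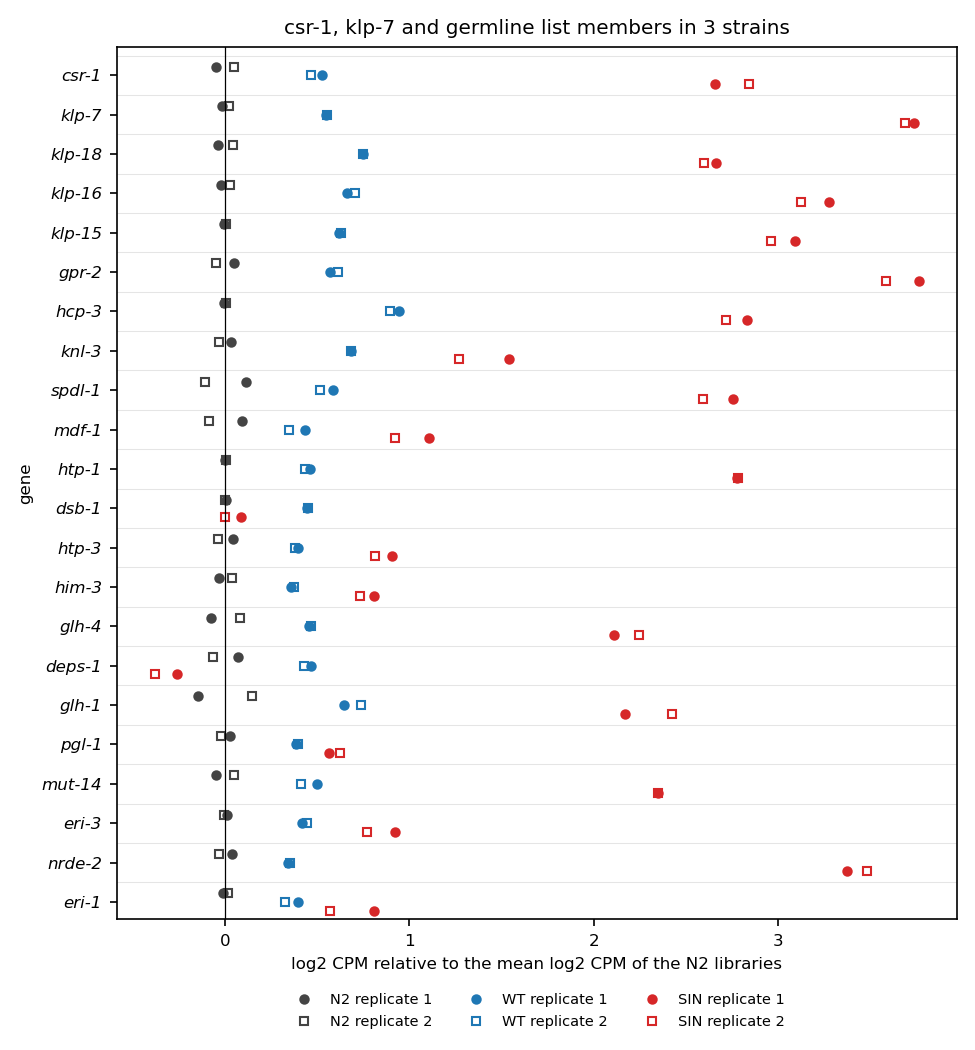
Log2 CPM of csr-1, klp-7 and members of 5 germline lists in each library, relative to the mean log2 CPM of the N2 libraries. Each row is a gene and members are the 4 of each list with the smallest p in WT versus N2, so that separation from N2 follows from that choice. The fitted WT differences shown run from 0.34 for nrde-2 to 0.92 for hcp-3, and those of SIN from -0.32 for deps-1 to 3.71 for klp-7.

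The members described next have the smallest p of their lists, so their separation and size follow from that choice and exceed the list medians. The kinesin gene klp-18, needed for the meiotic spindle, had 133 and 141 CPM in N2 and 230 and 230 CPM in WT (log2 0.75 ± 0.09 SE, adjusted p = 0.0502 by edgeR). SIN had 872 and 832 CPM. The meiotic axis gene htp-1 had 79.1 and 79.3 CPM for N2, 109 and 107 for WT, and 543 and 546 for SIN (log2 0.45 in WT, adjusted p = 0.0837). The meiotic break factor dsb-1 had 62.4 and 62.3 CPM for N2, 84.9 and 85.2 for WT, and 66.1 and 62.3 for SIN. WT and N2 did not overlap in these 3 genes, and SIN was far above WT in klp-18 and htp-1 and below it in dsb-1. Of the P granule genes, 9 of 15 had WT libraries wholly above N2 and 3 wholly below (25.4% and 27.7% of all genes), with the helicase gene glh-1 at 297 and 364 CPM in N2 and 514 and 548 CPM in WT (adjusted p = 0.106). Of 5 genes for CSR-1 and its 22G RNA cofactors, 3 had WT libraries wholly above N2 and 1 wholly below. The latter was the nucleotidyl transferase gene cid-1. It had 190.4 CPM in both WT libraries against 243 and 245 CPM in N2 (adjusted p = 0.129 by edgeR).

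Genes with deposited 22G RNA reads showed the same small shift. Their median log2 difference between WT and N2 was 0.09 over 4114 genes. Of these, 1942 had WT libraries wholly above N2 against 680 wholly below (25.4% and 27.7% of all tested genes). Ordered by the number of 22G RNA reads in 4 groups, the medians were 0.12, 0.11, 0.09 and 0.05 from the fewest to the most reads. Without N2 replicate 1 they were 0.06, 0.07, 0.06 and 0.08, and without N2 replicate 2 they were 0.18, 0.15, 0.11 and 0.04, so the decline was absent without N2 replicate 1. In SIN versus N2 the corresponding medians were -0.29, -0.16, -0.06 and 0.26. For germline specific genes the WT median was 0.13, with 519 of 1056 above and 115 below. Without N2 replicate 1 it was 0.06, and without N2 replicate 2 it was 0.24, so the size of this shift moved with the N2 library used. Genes in none of the deposited classes had a median of -0.23, with 2963 of 8280 wholly below N2 and 1200 wholly above, and medians of -0.14 without N2 replicate 1 and -0.23 without N2 replicate 2.

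**Figure D4:**
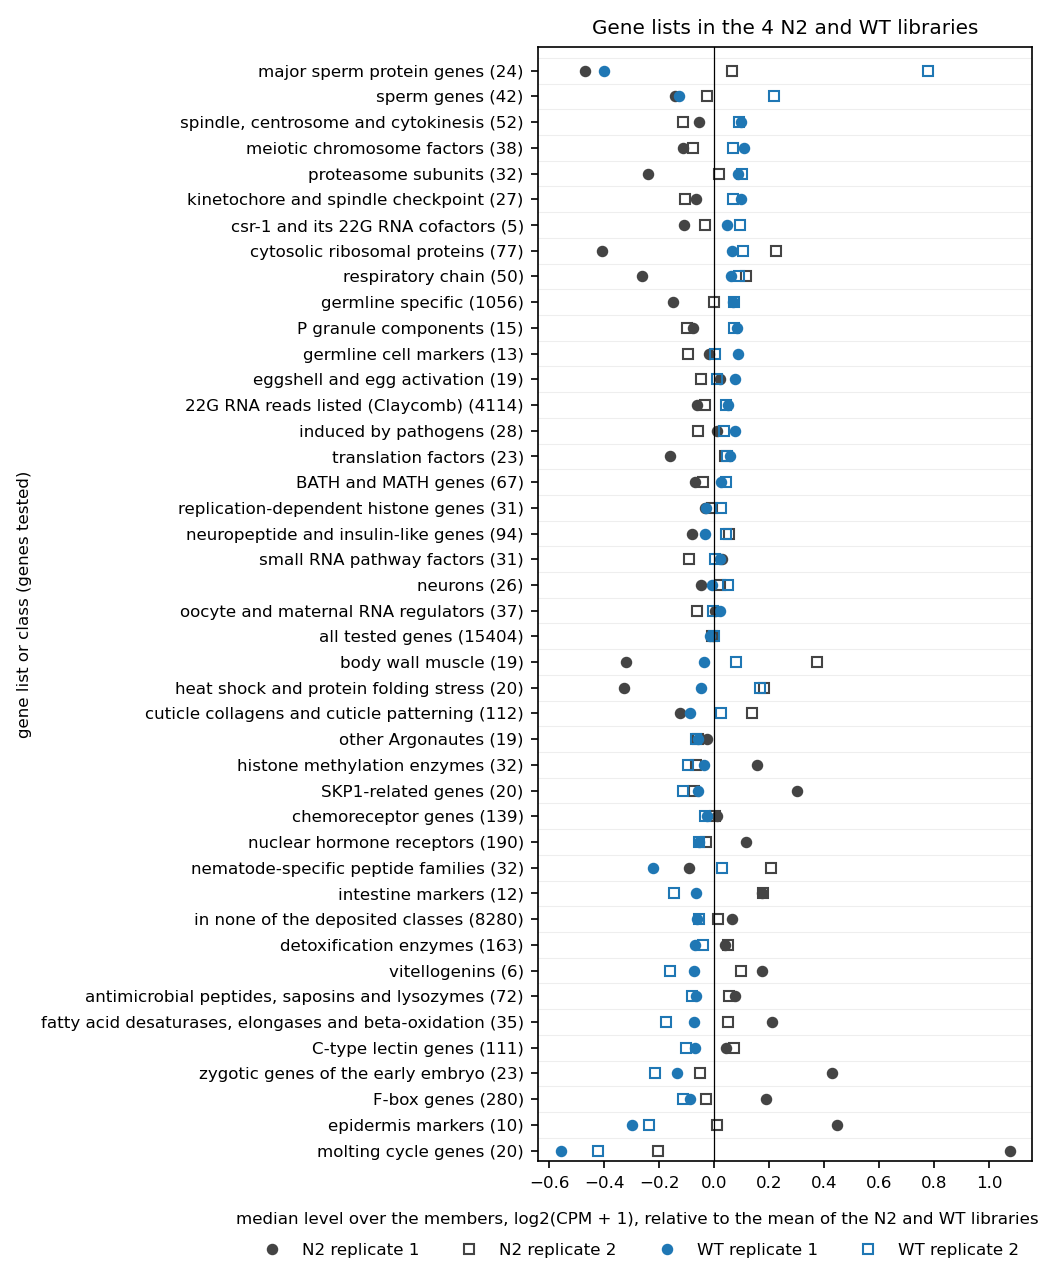
Median level over the members of each gene list or class in the N2 and WT libraries, on the log2(CPM + 1) scale relative to the mean of these 4 libraries. Rows are ordered by the median fitted log2 difference, and the number of genes tested is in brackets. The WT libraries lie furthest apart for the sperm lists, and N2 replicate 1 is far from the others for molting cycle genes at 1.07 and ribosomal proteins at -0.41.

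The lowest list medians in WT were those of molting cycle genes, epidermis markers, F-box genes and zygotic genes of the early embryo, and in each of these N2 replicate 1 was above N2 replicate 2. For 20 molting cycle genes the median log2 difference was -2.02, and 9 were lower at an unadjusted p under 0.05, where 11.3% of all genes were. By edgeR's adjusted test 0 of the 20 passed, and DESeq2 called 7 lower, against 546 of all 15404 genes. Relative to the mean of the 4 libraries, their median was 1.07 in N2 replicate 1, -0.20 in N2 replicate 2, -0.56 in WT replicate 1 and -0.42 in WT replicate 2. The median difference was -0.26 without N2 replicate 1 and -2.66 without N2 replicate 2. For 23 zygotic genes of the early embryo it was -0.44 with both N2 libraries and -0.03 without N2 replicate 1. For 10 epidermis markers the values were -0.61 and -0.40. The differences were thus larger with N2 replicate 1 than without it, and the part that the stage of its worms plays was not tested.

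Vitellogenins, the yolk proteins made by the adult intestine, kept their order with either N2 library. The median over 6 genes was -0.24, and 5 of the 6 had WT libraries wholly below N2 (27.7% of all genes). The median was -0.23 without N2 replicate 1 and -0.30 without N2 replicate 2. The summed level was 51269 and 45920 CPM for N2, 41784 and 40261 for WT, and 43191 and 53672 for SIN. With both N2 libraries none of the 6 passed the test, and all 6 had the interval inside 2-fold. The fatty acid list, at -0.31 over 35 genes, was at -0.06 without N2 replicate 1. Within it, the desaturase gene fat-5 had 41.6 and 66.7 CPM for N2, 11.2 and 11.2 for WT, and 60.9 and 48.8 for SIN (log2 -2.27 ± 0.25 SE, adjusted p = 0.0502 by edgeR). The carnitine palmitoyltransferase family gene cpt-3 had 4.02 and 4.35 CPM for N2, 0.807 and 0.430 for WT, and 11.9 and 7.98 for SIN (adjusted p = 0.0638). Both genes were low in WT and at or above the N2 level in SIN.

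Among multigene families, F-box genes had a median of -0.51 over 280 genes, with fbxa-192 and fbxa-193 the 2 members past the test. Their median was -0.19 without N2 replicate 1. The members differed by subfamily. Of 103 fbxb genes, 35 were at least 2-fold lower with libraries that did not overlap and 0 were higher in that way, where 8.23% and 2.05% of all tested genes were. Of 36 fbxc genes, 10 were lower and 0 higher. Of 141 fbxa genes, 11 were lower and 7 higher. Such falls were not particular to F-box genes. Of 61 genes with the symbol cyp, 16 were lower and 0 higher, and of 23 nas genes, 7 and 0. The C-type lectin list had a median of -0.33 over 111 genes and -0.29 without N2 replicate 1. BATH and MATH genes, which encode adaptors of another type of ubiquitin ligase, had a median of 0.08. The neighbours bath-1, bath-5 and bath-19 on chromosome II are among the members with the smallest p. Levels of bath-1 were 4.86 and 5.37 CPM for N2, 11.2 and 10.7 for WT, and 4.28 and 3.54 for SIN. Levels of bath-19 were 8.0 and 7.59 CPM for N2, 16.02 and 16.202 for WT, and 7.72 and 8.29 for SIN. Levels of bath-5 were 17.6 and 20.9 CPM for N2, 31.2 and 32.8 for WT, and 21.6 and 19.9 for SIN. The WT libraries of these 3 genes lay above those of N2 and SIN, but none passed against N2 (adjusted p = 0.09 for bath-1, 0.0998 for bath-5 and 0.0715 for bath-19 by edgeR).

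The direction of the ribosomal protein genes depended on the N2 library. With both, 0 of 77 were called, where 0.11% of all genes were, 75 had the interval inside 2-fold, and the median was 0.14. DESeq2 also called 0, against 7.25% of all genes. By edgeR 0 were at an unadjusted p under 0.05, against 20.1% of all genes. The median was -0.14 without N2 replicate 1 and 0.49 without N2 replicate 2. Relative to the mean of the 4 libraries, the list was at -0.41 in N2 replicate 1, 0.22 in N2 replicate 2, and 0.07 and 0.10 in WT. For 32 proteasome subunits the median was 0.18 and the interval was inside 2-fold for all 32. Their median was 0.08 without N2 replicate 1 and 0.33 without N2 replicate 2. SIN versus N2 gave medians of -0.50 and -0.21 for the same 2 lists. Major sperm protein genes could not be read in WT. The 24 genes summed to 1.53 and 14.6 CPM for N2, 2.59 and 40.0 for WT, and 16.3 and 46.5 for SIN. Replicate 2 was the higher library in each strain, and none of the 24 genes separated WT from N2. The separate list of 42 sperm genes summed to 160 and 153 CPM for N2, 187 and 203 for WT, and 275 and 290 for SIN. Its median log2 difference was 0.59, with 1 gene past the test (0.11% of all genes) and 4 intervals inside 2-fold. WT libraries lay wholly above N2 for 7 and wholly below for 3 (25.4% and 27.7% of all genes).

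By position, called genes lay on every chromosome but I and the mitochondrial DNA. X-linked genes had a median of -0.22 over 2128 genes and autosomal genes of 0.00 over 13146. On the X, 822 genes had WT libraries wholly below N2 and 222 wholly above. On the autosomes 3383 genes were wholly below and 3675 wholly above. Over all tested genes the shares were 27.7% and 25.4%. The class of gene differs between the chromosomes: 19.4% of tested X-linked genes and 41.2% of autosomal genes are in a germline class. Within the germline classes the medians were -0.13 on the X and 0.11 on the autosomes. Within the genes of no deposited class they were -0.25 and -0.22. Relative to the mean of the N2 and WT libraries, the X-linked median was 0.11 in N2 replicate 1, 0.01 in N2 replicate 2, and -0.07 and -0.08 in WT. WT was lower than either N2 library, with the larger gap to N2 replicate 1.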

How the data were processed

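Messenger RNA was measured in whole worms, 2 libraries for each of N2, WT and SIN, by poly(A) selection and a stranded kit with 500 ng of input RNA, read as 50 bases on a single lane, per the labels. The deposited table gives read counts per gene for 46748 genes, 24486 with a count. Tools listed without versions in the submitters' processing notes are STAR, HTSeq, DESeq and DESeq2, with the build WBcel235. The strand setting of the counting was not given in the sources used, and reads of overlapping genes cannot be separated. Per the file headers, the authors also deposited a group RPKM, gene lengths, germline classes, a score of 22G RNA reads (Claycomb) and RPM of 22G RNA in a CSR-1 immunoprecipitate (Conine). Per the table itself, these describe genes and not these samples, apart from the RPKM.

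Counts were tested with edgeR 4.0.16 (limma 3.58.1, R 4.3.3): TMM scaling, filterByExpr with a minimum count of 10 and a total of 15, and a robust quasi-likelihood fit of 3 group means over all 6 libraries, with 3 residual and a median of 3.58 prior degrees of freedom and a biological coefficient of variation of 0.219. The filter removed at most 0.0476% of the counts of a library. P-values were two-sided and adjusted by the Benjamini-Hochberg method at 0.05 over all genes tested. Intervals are 95% intervals of the fitted log2 ratio. The fit was also run on simulated counts with the same spread in all libraries. That run cannot show how the fit behaves with an N2 library that stands apart. Levels of list members are per library, and a pseudocount of 1 was used for log2(CPM + 1). TMM scaling takes the bulk of transcripts as equal, and reads give shares of mRNA and not amounts per worm. Positions come from the Ensembl annotation of WBcel235, which holds 99.2% of the tested genes. N2, WT and SIN share replicate numbers in the labels, which tie them to no common culture or day, so no block was used. Libraries of a strain differed by more than sampling noise (lowest chi-square per degree of freedom 9.06). Alternatives were RLE and upper-quartile scaling, no filter, DESeq2 1.42.0, the 4 N2 and WT libraries alone, the replicate block, a non-robust fit, a test against a 1.5-fold change, and leaving out each library.

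The comparison, the gene lists and the rule for named genes were chosen with earlier results of these data known. The rule names csr-1, klp-7 and unc-119, called genes with separate libraries and at least 2 CPM in the higher group (the 10 highest and 10 lowest by fold), the 4 highest and 4 lowest uncalled genes, neighbours within 20 kb, and up to 4 members with the smallest p per list. The counts over all 4 library pairs, by gene symbol class and by chromosome, and the genes avr-15 and dpy-14 within them, were chosen after their values were seen.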

Additional observations from a re-analysis of the deposited data

How the results depend on the processing

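The number of called genes (17, with 7 higher and 10 lower in WT) depended on the processing. All 17 kept their direction in each of the 13 alternatives run on single genes. Their WT and N2 libraries did not overlap, so the kept direction adds little support. Calls in all, higher and lower numbered 29, 14 and 15 with RLE scaling, 10, 4 and 6 with upper-quartile scaling, 2217, 798 and 1419 with no filter on low counts, 1117, 571 and 546 with DESeq2, and 6, 3 and 3 in the test against a 1.5-fold change. The edgeR fit of the 4 N2 and WT libraries alone gave 0, 0 and 0, with 2571 genes at an unadjusted p under 0.05. With the replicate block there were 253, 107 and 146 calls. Deviations of same-numbered libraries from their group means correlated across genes with r = 0.24 for N2 and WT, 0.37 for N2 and SIN and 0.35 for WT and SIN. The labels give these numbers no shared source. With 2 libraries a strain, each r compares a single difference between libraries per strain, so the values cannot show a pairing. Leaving out a single library gave 0 to 4007 calls in all, 0 to 1676 higher and 0 to 2331 lower. The 17 genes were all called with RLE scaling, no filter, DESeq2, the replicate block and without either N2 replicate, 10 remained with upper-quartile scaling and 14 without robust moderation, and 0 remained with the 4 libraries alone or without any WT or SIN library, where their adjusted p ran from 0.102 to 0.487. The count of intervals inside 2-fold ran from 6274 to 10249, within 1.5 times of 8197. The 10249 were of 24486 genes, with no filter, and the 8197 of 15404, so these 2 counts do not compare as shares. The log2 difference of csr-1 passed at 0.52 with no filter (adjusted p = 0.00101), 0.52 with DESeq2, 0.45 without N2 replicate 1 and 0.54 without N2 replicate 2. Over fits without a single library, the log2 difference ran from -1.32 to 3.80 for msp-55, -0.83 to 3.92 for msp-142 and -0.37 to 5.37 for msp-76, in place of 2.32, 1.98 and 2.11, and the negative values were those without WT replicate 2. In fits without an N2 replicate the spread came from WT and SIN alone, so their passes support no call. The cause of these changes was not tested. Scaling moved the median of all genes by less than 0.1, to 0.00 with RLE and -0.08 with upper-quartile factors. With 2 libraries a strain, of which N2 replicate 1 stood apart, small differences could not be resolved by gene, and counting depth limited genes with few reads.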
